A study of Mus musculus with 12 samples.

Results

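Metastatic and primary tumours of one mouse medulloblastoma model were compared across all genes, as 4 metastatic against 4 primary samples, 8 of the 12 samples in the series. Membership was taken from the sample titles, and no measured value was used to choose them. The genotype of all 8 is Math1-cre;A1G;Ptch1+/-, shortened below to A1G. These mice carry a Cre driven by the Math1 (Atoh1) promoter, which is active in cerebellar granule neuron progenitors, the A1G allele, which the labels do not expand, and 1 intact copy of the hedgehog receptor gene Ptch1. The other 4 samples, tumours of Ptch1+/- mice without the Cre or A1G (here Ptch1het), serve only as levels. All 12 samples are thus from mice heterozygous for Ptch1. The labels used here name neither the site of the metastases nor the age of the mice, and for metastatic tumours 2 and 3 the genotype is spelled in another way than for 1 and 4. Whether each tumour is from its own animal is not said, so p-values measure only the spread between these samples, which may be technical.

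Medulloblastoma of the SHH subgroup arises from granule neuron progenitors of the cerebellum whose hedgehog pathway stays active. Loss of the receptor Ptch1 releases the transducer Smo, and the Gli factors then keep the cells dividing. The tumour spreads mainly through the cerebrospinal fluid to the meninges and spinal cord. A dissected metastasis can therefore hold nerve, meninges or muscle beside tumour cells, and a primary tumour can hold cerebellar glia and neurons.

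Both groups carried the marks of the tumour model. The eGFP probe, for the green fluorescent protein, had a log2 signal of 13.51, 11.76, 11.88 and 11.47 in metastatic tumours, against 13.08, 11.96, 11.67 and 12.42 in primary tumours (difference -0.13, SE 0.22, adjusted p = 0.768). The groups overlapped, while the Ptch1het tumours lay between 7.18 and 8.09. The granule lineage factors Zic1 (13.74 ± 0.40 in metastatic and 14.13 ± 0.24 in primary tumours, SD, n = 4 each) and Barhl1 (12.32 ± 0.22 in metastatic and 12.65 ± 0.18 in primary tumours) were high in both groups. Atoh1, Gli1 and Mycn had no probe above the array median in any A1G tumour and were not tested.

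In the fit with same-numbered tumours as pairs, 1482 of 15839 genes passed a Benjamini-Hochberg adjusted p of 0.05 (9.36%). Of these, 1024 were higher in metastatic tumours (6.47% of genes tested) and 458 lower (2.89%). Rises were larger: 187 genes rose and 12 fell at least 4-fold, while 650 rose and 105 fell at least 2-fold. Of the falls, 445 were of genes above the array median in all 4 primary tumours. Genes were tested only if above that median on enough arrays, so genes lower in metastatic tumours were likely to exceed it in primary tumours. On no list of other cell types were 436 of the falls. Those lists hold few of the 15839 genes, so most of any set of genes lies outside them. The part of other cell types in the falls was not tested. The number of falls depended on the pairing and on single pairs. Without pairing 211 genes were lower, and without replicate 1, 2, 3 or 4 there were 257, 123, 176 and 283. Without replicate 2, 607 genes were higher. Adjusted p-values below are from the paired limma fit unless stated otherwise, and where a gene is given with its p and leaving out the pairing or 1 pair ends the call, the p without it follows.

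**Figure D1:**
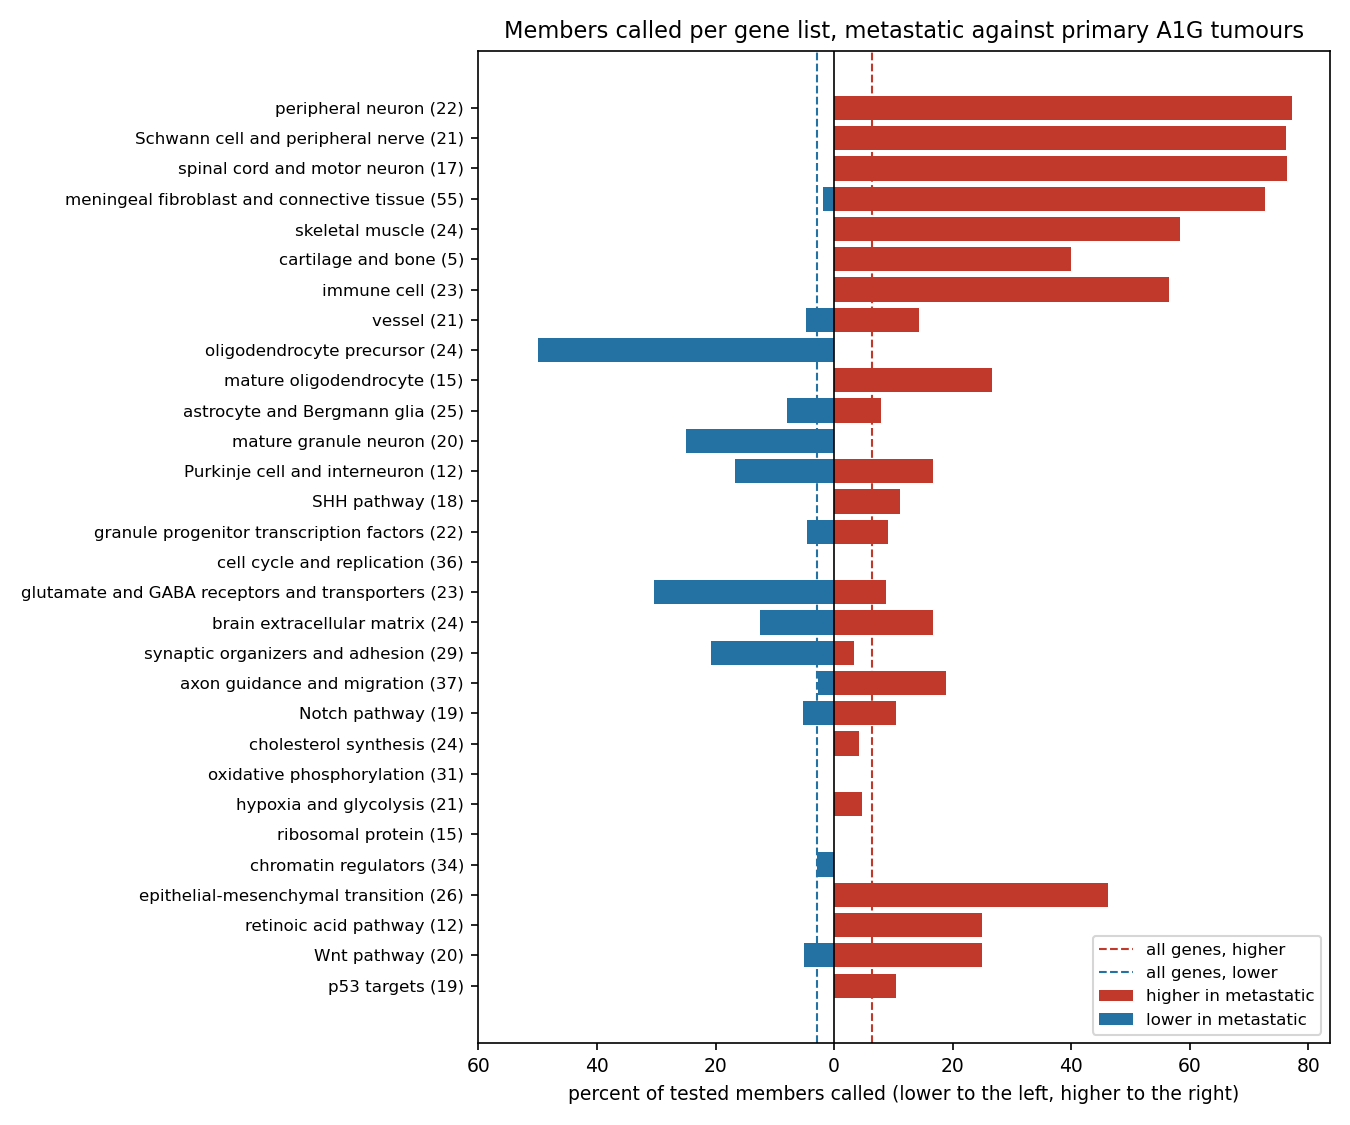
Share of the tested members of each gene list that passed at an adjusted p of 0.05, lower in metastatic tumours to the left and higher to the right. Dashed lines give the shares over all genes, 2.89% and 6.47%, and the number of tested members is in parentheses. Nerve, spinal cord, connective tissue and muscle lists extend to the right, and the oligodendrocyte precursor list extends farthest to the left.

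Genes of oligodendrocyte precursors, the dividing glial cells that give rise to myelinating oligodendrocytes, held more falls than any other list examined. Of 24 tested members 12 fell and none rose, against 2.89% lower over all genes, and the median difference was -0.76 against -0.06 over all genes. Receptors, transcription factors and matrix proteins were among them. Cspg5 and Matn4 are also counted among the 3 falls of the brain matrix list. The lists and their members were chosen with earlier results of these data known, so the count is a description and not a test. In bulk tissue, fewer cells of a type and less RNA per cell cannot be told apart.

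Gpr17, a receptor of precursors that have begun to differentiate, had a log2 signal of 6.13, 7.77, 6.94 and 8.79 in metastatic tumours, against 10.66, 10.63, 10.32 and 10.54 in primary tumours. The groups did not overlap, and the primary tumours lay within a narrow range. Gpr17 was 8.76-fold lower (log2 difference -3.13, SE 0.39, adjusted p = 0.00319), and the Ptch1het tumours lay between 7.24 and 9.69. Nkx2-2, a homeodomain factor that specifies oligodendrocytes, read 5.74, 6.56, 5.96 and 7.84 in metastatic tumours, against 8.63, 8.72, 8.28 and 8.76 in primary tumours (log2 difference -2.07, SE 0.29, adjusted p = 0.00541). Only metastatic tumour 4 was above the array median of 7.05 for this gene. Olig1, a lineage factor, kept a high signal, 12.63 ± 0.56 in metastatic and 13.87 ± 0.19 in primary tumours (adjusted p = 0.0149, but 0.0546 to 0.0593 without replicate 1, 2 or 3). Its relative Olig2 was close to background at 6.64 ± 0.53 in metastatic and 7.28 ± 0.24 in primary tumours (adjusted p = 0.049, but 0.191 without pairing and 0.121 to 0.184 without replicate 2, 3 or 4).

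Surface and matrix genes of the same cells were lower too. Cspg5, a chondroitin sulfate proteoglycan, read 7.13, 8.30, 7.31 and 8.98 in metastatic tumours, against 10.47, 11.0, 9.68 and 10.60 in primary tumours, a 5.69-fold lower level (SE 0.25 on the log2 scale, adjusted p = 0.00146). Matn4, a matrilin of the matrix, was 3.84-fold lower (8.44 ± 0.50 in metastatic and 10.38 ± 0.39 in primary tumours, adjusted p = 0.00457), and the membrane protein gene Lhfpl3 3.04-fold lower (adjusted p = 0.00305). The groups did not overlap for these genes, nor for the others of this paragraph, with all metastatic tumours lower, as in 5.87% of all genes tested. All of them were called lower, and 228 of the 458 genes called lower (49.8%) did not overlap. Neu4, a sialidase (2.08-fold, adjusted p = 0.00583), and Cacng4, an auxiliary subunit of AMPA receptors (2.61-fold, adjusted p = 0.0103), also fell. Ptprz1, a receptor phosphatase, fell by 1.88 on the log2 scale (adjusted p = 0.035, but 0.068 to 0.115 without replicate 2 or 3). Scrg1 fell by 2.07 (adjusted p = 0.0149, but 0.0548 to 0.0692 without replicate 2 or 3), and the proteoglycan Cspg4, which pericytes also make, by 0.63 (adjusted p = 0.0289, but 0.0754 to 0.112 without replicate 1, 2 or 4).

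Not all members of the list moved. The growth factor receptor Pdgfra, which marks early precursors and also connective tissue, read 12.06 ± 0.28 in metastatic and 12.47 ± 0.19 in primary tumours (adjusted p = 0.193). Sox10, a factor of both oligodendrocytes and Schwann cells, read 11.63 ± 0.48 in metastatic and 11.68 ± 0.31 in primary tumours (adjusted p = 0.895). The lower calls of the list numbered 10, 7, 8 and 11 without replicate 1, 2, 3 or 4.

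Genes of mature myelin did not follow the precursor genes. Of 15 tested members of the mature oligodendrocyte list 4 rose and none fell, against 6.47% higher over all genes, with a median difference of 0.90. Without replicate 2 or 3 there were 2 and 1 rises. Mbp, a protein of central and peripheral myelin, read 13.99, 13.59, 13.28 and 15.51 in metastatic tumours, against 13.20, 10.42, 9.72 and 9.63 in primary tumours (adjusted p = 0.0235, but 0.0789 to 0.0912 without replicate 2 or 3). Its 3 other probes differed by -0.20, 1.39 and 2.46. The pair 4 difference of Mbp, 5.88, was also the largest in the Schwann cell list described below, so the 2 lists share members and their rises are not counted separately. Mal, a protein of compact myelin, rose by 2.62 (SE 0.30, adjusted p = 0.00247).

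Pair 4 stood apart in these genes. Mobp, a protein of central myelin, read 6.88, 8.41, 7.0 and 12.55 in metastatic tumours, against 9.30, 7.21, 7.06 and 6.84 in primary tumours (adjusted p = 0.581). Its difference was 5.71 in pair 4 and between -2.42 and 1.20 in the others. The myelin gene Mag differed by 5.23 in pair 4 and by -0.27 in pair 1, and did not pass. The mean of the mature oligodendrocyte list was 11.59 in metastatic tumour 4 and between 9.68 and 9.99 in metastatic tumours 1 to 3, against 8.86 to 10.06 in primary tumours.

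**Figure D2:**
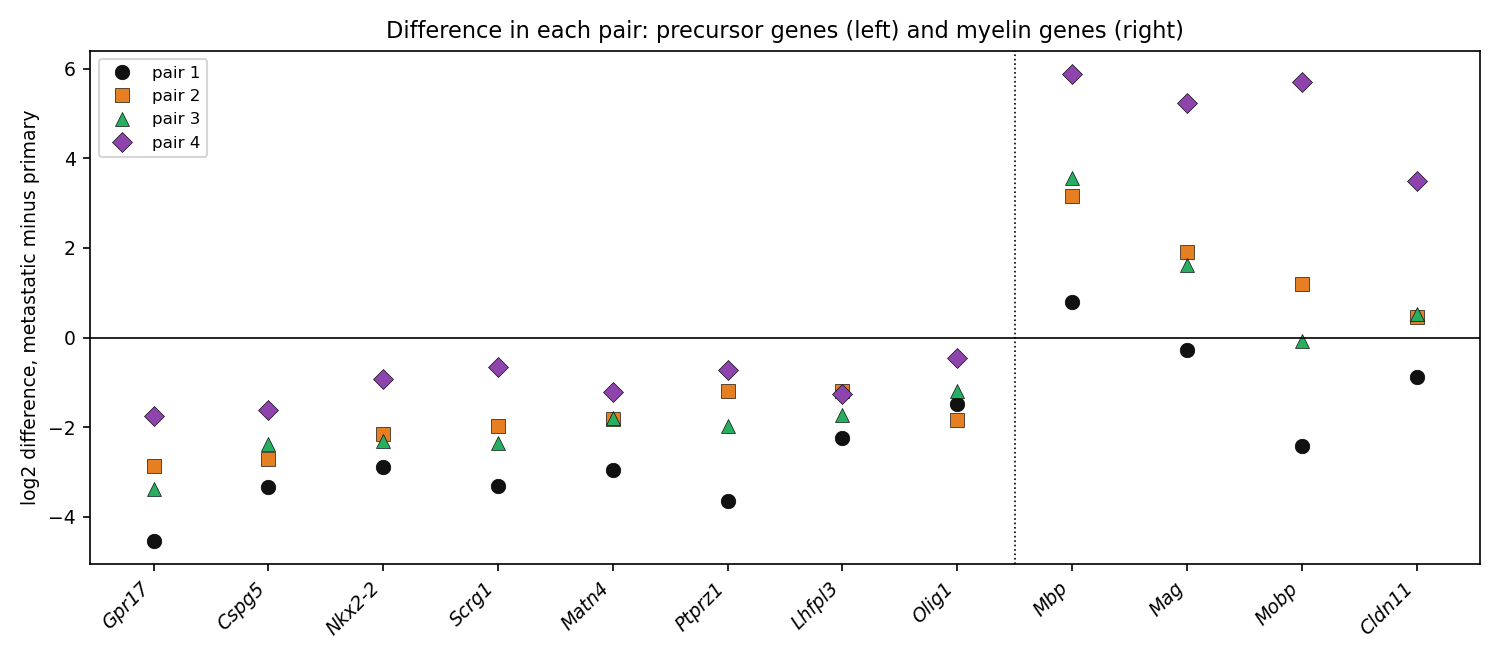
Log2 difference, metastatic minus primary, in each of the 4 pairs for 8 precursor genes that fell (left of the dotted line) and 4 myelin genes (right). The genes were chosen after their values were seen. The precursor genes lie below 0 in every pair, and the myelin genes spread widely, with Mobp between -2.42 and 5.71.

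Neuronal genes of the granule lineage and of synapses were lower in smaller numbers. Of 20 tested genes of mature granule neurons 5 fell and none rose (median -0.74), against 2.89% lower and 6.47% higher over all genes. Of 23 glutamate and GABA receptor and transporter genes 7 fell and 2 rose (median -0.35), and of 29 synaptic organizers and adhesion genes 6 fell and 1 rose (median -0.43). Without pairing, 0, 2 and 2 members of these lists were lower in the limma fit, which then called 1042 genes in all. Without replicate 2 the receptor and synaptic lists held 2 and 3 lower members, and without replicate 3 they held 2 and 1.

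Kcnd2, which encodes the A-type potassium channel of granule neurons, read 6.68, 7.72, 6.62 and 9.37 in metastatic tumours, against 10.02, 9.89, 9.20 and 11.97 in primary tumours. The groups overlapped, since metastatic tumour 4 lay above primary tumour 3, yet the metastatic tumour was the lower one of every pair. The mean difference was -2.67 (SE 0.19, adjusted p = 0.000347, but 0.0531 without pairing). Calb2, which encodes calretinin, was likewise highest in replicate 4 of both groups (11.75 in metastatic and 13.52 in primary) and fell by 1.92 (adjusted p = 0.0122, but 0.303 without pairing). The neuronal transcription factor Neurod2 fell by 1.41 (adjusted p = 0.00251, but 0.177 without pairing), while its other probe differed by -0.42. Car10, a carbonic anhydrase-related protein, fell by 1.37 (adjusted p = 0.0102, but 0.143 without pairing).

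Gria1, an AMPA receptor subunit, read 7.22, 8.09, 7.17 and 9.51 in metastatic tumours, against 10.43, 11.11, 9.83 and 10.44 in primary tumours. The groups did not overlap, and Gria1 was 5.48-fold lower (log2 difference -2.45, SE 0.35, adjusted p = 0.00596). Its 3 other probes, which were dimmer, differed by -1.14, -0.73 and -0.42. The falls of Gabrb1, Slc1a1, Gabbr1 and Glrb (0.56 to 1.13 on the log2 scale) passed with pairing only, with adjusted p-values of 0.0163 to 0.0477, against 0.0559 to 0.316 without it. The metabotropic receptor gene Grm7 rose by 1.57 (adjusted p = 0.00222), and the kainate receptor gene Grik1 rose by 1.28 (adjusted p = 0.0118), while 2 other Grik1 probes near the array median differed by -0.06 and 0.62.

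C1ql2, a secreted synaptic organizer of the C1q family, read 6.38, 7.61, 6.59 and 7.84 in metastatic tumours, against 9.63, 9.44, 9.03 and 9.52 in primary tumours. It was 4.93-fold lower with no overlap (adjusted p = 0.00221), and the Ptch1het tumours lay between 6.45 and 8.92. Nrxn3, a neurexin, fell by 1.18 (adjusted p = 0.0172, but 0.194 without pairing and 0.0633 to 0.0747 without replicate 1 or 3). Tenm4, a teneurin, rose by 1.68 (adjusted p = 0.0155, but 0.0661 without replicate 2).

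Other large falls were spread over several functions. Vxn, which encodes vexin, a regulator of neural differentiation, was 6.40-fold lower (7.79 ± 1.11 in metastatic and 10.47 ± 0.25 in primary tumours, adjusted p = 0.00316). Slc25a18, a mitochondrial glutamate carrier, fell by 2.47 (9.43 ± 1.40 in metastatic and 11.91 ± 0.90 in primary tumours, adjusted p = 0.0139, but 0.058 without pairing and 0.0659 without replicate 3). Timp4, an inhibitor of metalloproteinases, fell by 2.16 (adjusted p = 0.0261, but 0.0827 without pairing and 0.084 to 0.103 without replicate 1, 2 or 3). Slc1a3, a glutamate transporter of astrocytes and Bergmann glia, was 2.50-fold lower without overlap (13.23 ± 0.40 in metastatic and 14.56 ± 0.39 in primary tumours, adjusted p = 0.0115). The astrocyte list as a whole held 2 falls and 2 rises among 25 tested members, against 2.89% lower and 6.47% higher over all genes. Without replicate 4 it held 8 falls and 1 rise. It held 1 fall and 4 rises without replicate 1, and without pairing, replicate 2 or replicate 3 it held 1 fall and no rise.

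Cd70, a ligand of the TNF family, exceeded the array median in no metastatic tumour and was at least 2.48-fold lower than in primary tumours (6.33 ± 0.35 in metastatic and 8.36 ± 1.00 in primary tumours, adjusted p = 0.0292, but 0.087 without replicate 1). Such bounds set a gene at or below the median in a whole group to the median there. Hes5, a Notch target, exceeded the median in no metastatic tumour and was at least 1.87-fold lower (adjusted p = 0.0148, but 0.0664 without replicate 2). Cd70 and Hes5 were tested only because of their signal in primary tumours, so they could only be lower in metastatic tumours.

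**Figure D3:**
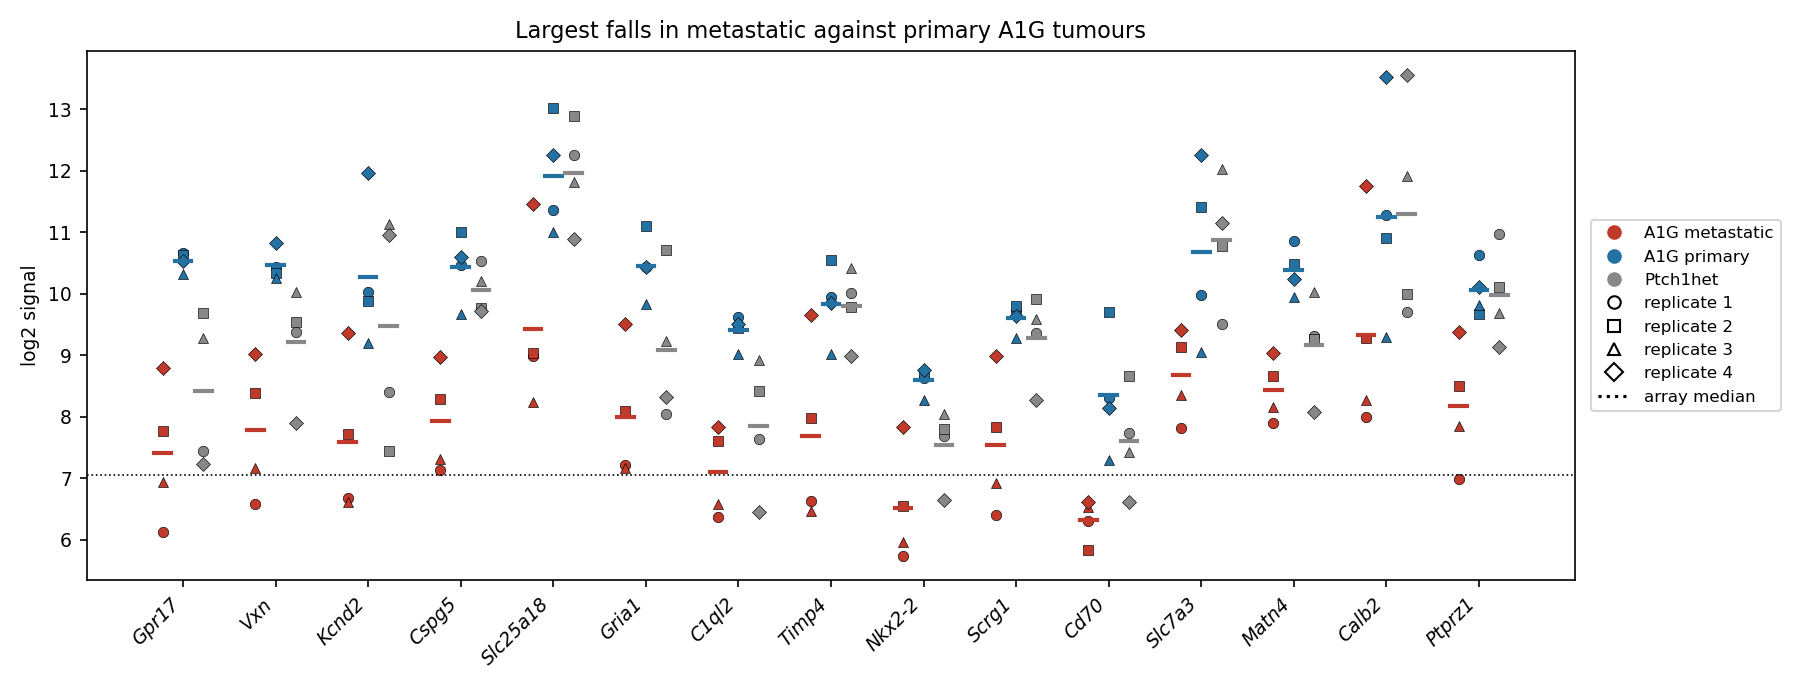
Log2 signal of the 15 largest falls in every tumour, with metastatic tumours at the left, primary tumours in the middle and Ptch1het tumours at the right of each gene. Marker shapes give the replicate number, bars the group means and the dotted line the array median. Gpr17 lies between 6.13 and 8.79 in metastatic and between 10.32 and 10.66 in primary tumours, while Kcnd2 and Calb2 overlap between the groups.

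Some of the falls were in genes of amino acid supply and one-carbon metabolism, a group noticed only after the values were seen. Cells short of amino acids translate the factor ATF4, which switches on transporters and synthetic enzymes through promoter sequences such as TGATGNAA. Slc7a3, a transporter of cationic amino acids, read 7.83, 9.14, 8.35 and 9.42 in metastatic tumours, against 9.99, 11.42, 9.05 and 12.26 in primary tumours. The groups overlapped but every pair was lower, and the mean difference was -1.99 (SE 0.31, adjusted p = 0.0089, but 0.109 without pairing). Aldh1l2, a mitochondrial folate enzyme, read 8.59, 10.16, 9.82 and 10.19 in metastatic tumours, against 10.47, 11.84, 10.77 and 11.76 in primary tumours, a 2.87-fold lower level without overlap (adjusted p = 0.00233, but 0.0616 without pairing). Chac1, which degrades glutathione, was 2.66-fold lower (adjusted p = 0.00394, but 0.211 without pairing). Pycr1, an enzyme of proline synthesis, was 2.05-fold lower without overlap (8.39 ± 0.32 in metastatic and 9.43 ± 0.44 in primary tumours, adjusted p = 0.00543). Asns, asparagine synthetase, was 1.98-fold lower (adjusted p = 0.0308, but 0.166 without pairing and 0.0698 to 0.0972 without replicate 1, 2 or 4).

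Promoters of 3 of these falling genes were in the RefSeq table for GRCm38.p6, each spanning 250 bases before to 50 bases after a gene start. They are shown because each holds TGATGNAA, in capitals, searched on both strands:
Asns, chr6:7693160-7693459, minus strand: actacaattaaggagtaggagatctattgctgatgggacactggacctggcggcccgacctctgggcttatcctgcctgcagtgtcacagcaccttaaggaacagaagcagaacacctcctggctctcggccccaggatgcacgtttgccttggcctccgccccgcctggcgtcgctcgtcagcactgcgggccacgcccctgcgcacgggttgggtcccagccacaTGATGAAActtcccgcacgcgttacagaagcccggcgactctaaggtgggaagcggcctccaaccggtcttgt
Chac1, chr2:119350992-119351291, plus strand: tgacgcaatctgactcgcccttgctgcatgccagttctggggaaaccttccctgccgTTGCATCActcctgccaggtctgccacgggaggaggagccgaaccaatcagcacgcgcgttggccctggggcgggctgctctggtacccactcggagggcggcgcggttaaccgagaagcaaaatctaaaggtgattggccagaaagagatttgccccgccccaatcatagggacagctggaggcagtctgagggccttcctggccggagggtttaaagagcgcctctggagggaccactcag
Pycr1, chr11:120643699-120643998, minus strand: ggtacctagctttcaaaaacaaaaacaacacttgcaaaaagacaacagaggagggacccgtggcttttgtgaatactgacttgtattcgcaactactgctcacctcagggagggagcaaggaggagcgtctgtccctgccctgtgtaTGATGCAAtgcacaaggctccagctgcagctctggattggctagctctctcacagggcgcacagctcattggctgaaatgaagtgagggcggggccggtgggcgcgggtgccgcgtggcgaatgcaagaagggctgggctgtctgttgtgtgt

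The motif begins 23 bases before the start in Asns, 193 in Chac1, where it is on the opposite strand, and 103 in Pycr1. It is held by 3.97% of all 32851 promoters there. It was 1 of 3 motifs looked for in 25 genes chosen after their values were seen, 16 of them with a promoter entry, and it was kept after the others were seen. CAGCTG (16.3% of all promoters) was in 5 of the 16, Chac1, Lhfpl3, Matn4, Plekha4 and Pycr1, and ACAATG or ACAAAG (28.6%) in Olig2. TGATGNAA was also in Matn4. A list of amino acid response genes was written after these falls were seen. Of its 41 tested members 5 were lower and 2 higher, against 2.89% and 6.47% over all genes, with a median difference of -0.20. Without pairing 1 was lower and 1 higher. Promoters were found for 35 of them, and 15 hold the motif, the 3 above and 12 that did not fall. Both genes that rose, the cystine transporter gene Slc7a11 (0.72, adjusted p = 0.0285, but 0.327 without pairing and 0.0681 to 0.107 without replicate 1, 2 or 4) and the stress response gene Nupr1 (1.15, adjusted p = 0.00581), are among those 12. Atf4 itself read 12.77 ± 0.34 in metastatic and 12.71 ± 0.33 in primary tumours (adjusted p = 0.896).

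Lists of tissues that can adjoin a metastasis moved the other way. Of the peripheral neuron list 17 of 22 tested members rose, of the Schwann cell list 16 of 21 and of the spinal cord list 13 of 17. Of the meningeal and connective tissue list 40 of 55 rose and of the skeletal muscle list 14 of 24, against 6.47% over all genes. In that order, 6, 8, 11, 3 and 3 tested members were at or below the array median in all 4 primary tumours. Such members passed the probe filter only through the metastatic tumours, so they could only be higher there. With probes above the median on all 8 arrays, 4, 5, 1, 28 and 4 members rose. The sensory neuron genes Sncg, Prph, Scn11a and Avil were among the 5 largest rises of all, at 6.09, 5.54, 5.16 and 5.16 on the log2 scale. The neuropeptide gene Calca rose 22.95-fold (13.06 ± 0.54 in metastatic and 8.54 ± 0.22 in primary tumours), while its 3 other probes differed by 0.14, 4.41 and 4.89. Hoxc9, which patterns the trunk, rose at least 5.92-fold. Mean levels of the peripheral neuron list lay between 9.57 and 10.58 in metastatic tumours and between 7.18 and 7.51 in primary tumours. Those of the Schwann cell list lay between 10.08 and 10.52 against 7.89 and 8.45, and those of the connective tissue list between 10.76 and 10.96 against 8.79 and 9.45. All 4 metastatic tumours lay above all primary tumours in these lists. Immune cell genes rose in 13 of 23 and vessel genes in 3 of 21, with 1 lower, and of 5 cartilage genes 2 rose. Of the immune genes 4 were likewise at or below the median in all 4 primary tumours and could only be higher in metastatic tumours. With probes above the median on all 8 arrays, 6 immune genes rose. The immune rises numbered 6 without replicate 1 or without replicate 2 and 7 without pairing. The vessel rises numbered 1 without replicate 1, 2 without replicate 2 or 4 and 7 without replicate 3. In the cartilage list 1 rise was called without pairing or without any 1 replicate. Igfbp2, a binding protein of insulin-like growth factors, was the 1 connective tissue gene that fell (-1.33, adjusted p = 0.0316, but 0.106 without pairing and 0.102 to 0.116 without replicate 1 or 2). Their part in the rises and falls was not tested.

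Skeletal muscle differed between the metastatic tumours. The mean of its list was 10.49, 11.10, 7.83 and 9.42 in metastatic tumours 1 to 4, against 7.40 to 8.07 in primary tumours. Atp2a1, the calcium pump of fast muscle, read 13.38, 13.59, 7.83 and 11.43 in metastatic tumours, against 6.88 to 7.05 in primary tumours. The list mean of metastatic tumour 3 lay above those of primary tumours 1 to 3, at 7.40 to 7.46, and below that of primary tumour 4. Single muscle genes of that tumour, among them Atp2a1, Tpm2 (9.38, against 6.91 to 7.49 in primary tumours) and Tnni2 (7.97, against 6.60 to 7.04), lay above every primary tumour. The higher muscle genes numbered 2 in the fit without replicate 1, 3 in that without replicate 2 and 8 without pairing. With trended, robust variance moderation there was 1.

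**Figure D4:**
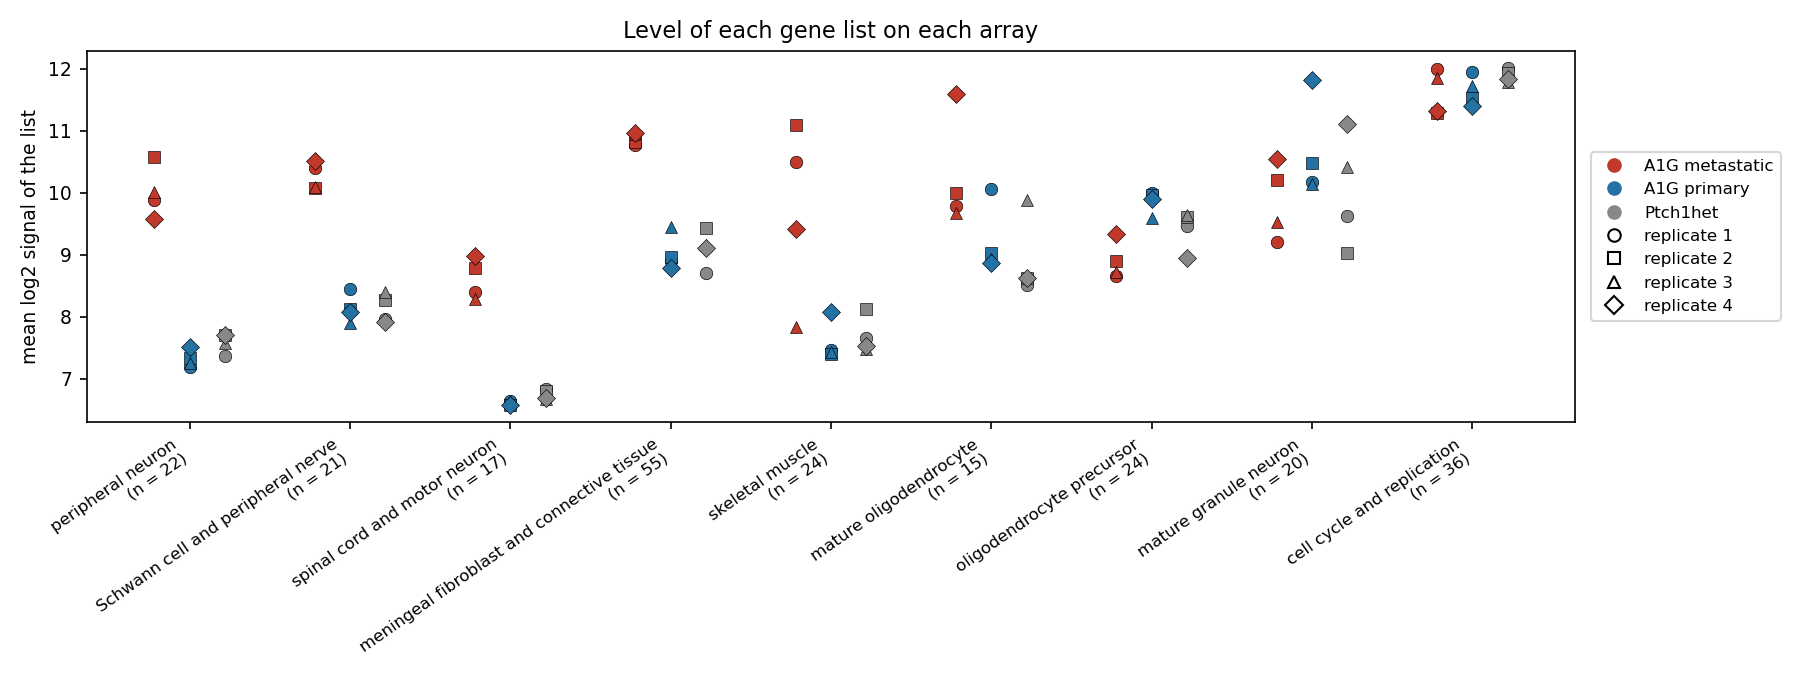
Mean log2 signal of the tested members of 9 gene lists in every tumour, with metastatic tumours at the left, primary tumours in the middle and Ptch1het tumours at the right of each list, and marker shapes for the replicate number. Nerve and connective tissue lists are separated between metastatic and primary tumours in every replicate, muscle is at 7.83 in metastatic tumour 3, and the cell cycle list overlaps.

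Rises were also seen in genes above the array median of 7.05 in every primary tumour, some of them only just. Fxyd2, for instance, read 7.07, 7.78, 7.25 and 7.56 in primary tumours. Of the 1024 rises, 643 were of genes above the array median in all 4 primary tumours, and 593 of these were on none of the lists of adjoining tissue. Such lists do not hold every gene of those tissues, so a gene outside them is not thereby a gene of tumour cells. Plekha4, which encodes a PH domain protein, read 12.33, 12.15, 12.07 and 12.02 in metastatic tumours, against 7.98, 8.10, 7.99 and 8.01 in primary tumours. Both groups were tight, and the rise was 17.4-fold (SE 0.13 on the log2 scale, adjusted p = 1.38e-05). The imprinted RNA H19 read 12.40, 11.39, 13.57 and 11.09 in metastatic tumours, against 7.82, 7.47, 8.86 and 8.04 in primary tumours, a 16.7-fold rise (adjusted p = 0.000296), and replicate 3 was highest in both groups.

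Of the 15 largest of these rises 14 are described, which were taken by size and not by function. Scd1, a desaturase of fatty acid synthesis, rose 15.6-fold with a wide spread in metastatic tumours (12.98 ± 1.59 in metastatic and 9.02 ± 0.58 in primary tumours, adjusted p = 0.00627). Ccn2, a matricellular growth factor, read 13.71, 13.47, 13.46 and 13.63 in metastatic tumours, against 10.31, 10.68, 10.94 and 10.03 in primary tumours (8.43-fold, adjusted p = 0.00029). Itgb4, a laminin receptor subunit, rose 7.99-fold (adjusted p = 0.000109). The collagen-processing protease Adamts2 rose by 3.36 (adjusted p = 0.000103), the membrane protein gene Emp1 9.66-fold (adjusted p = 0.000351) and the scaffold gene Ahnak by 2.87 (adjusted p = 0.00161).

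Cd59a, an inhibitor of complement, rose 9.75-fold (12.27 ± 0.41 in metastatic and 8.99 ± 0.23 in primary tumours, adjusted p = 5.03e-05). Fxyd2, a regulator of the sodium pump, rose 12.6-fold (adjusted p = 0.000299). Aqp1, which encodes a water channel, rose 8.14-fold (adjusted p = 0.00329). Gstm2, a glutathione transferase, rose by 2.88, while its 2 other probes differed by 1.39 and 2.74. Parm1 and the RNA gene Snhg11 rose by 3.32 and 3.01. In all 14 genes from Plekha4 to Snhg11 every metastatic tumour lay above every primary tumour, as it did for 7.48% of all genes tested. It also did for 872 of the 1024 genes called higher (85.2%). These genes were taken as the largest called rises, so such separation was likely from the choice alone.

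**Figure D5:**
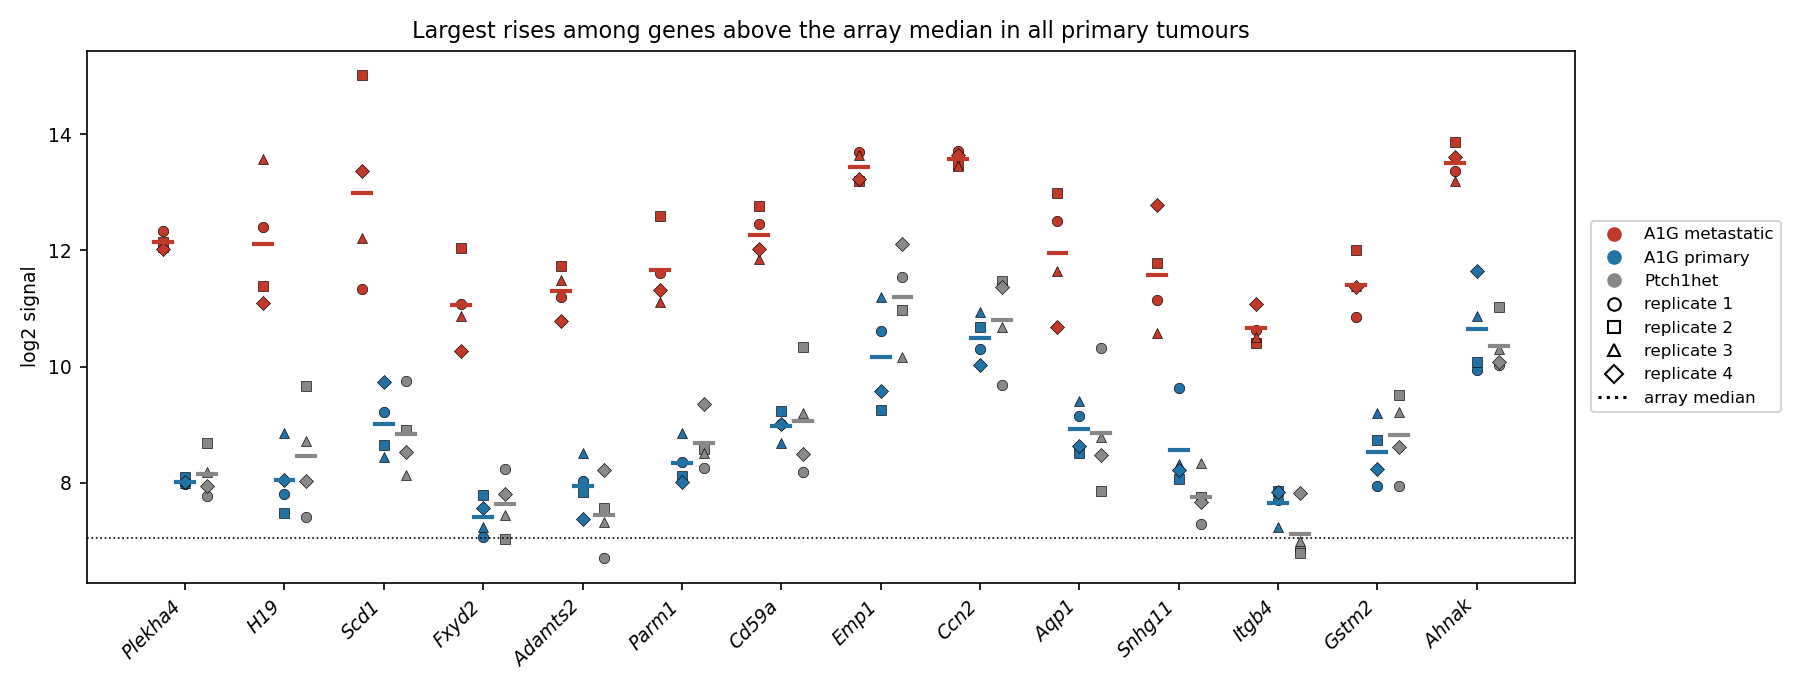
Log2 signal of 14 of the 15 largest rises among genes above the array median in all primary tumours and on no list of adjoining tissue, with metastatic tumours at the left, primary tumours in the middle and Ptch1het tumours at the right of each gene. Bars are group means, marker shapes give the replicate number and the dotted line is the array median. Metastatic tumours lie above primary tumours in every gene, tightly for Plekha4 and widely for Scd1.

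Among hedgehog genes the ligand genes Shh and Dhh rose, and the response genes Ptch1 and Hhip did not pass. Gli1, another response gene, was not tested, and Dhh is counted in the Schwann cell list. Shh, the ligand, read 9.32, 8.65, 8.09 and 8.94 in metastatic tumours, against 6.54, 6.57, 6.15 and 6.43 in primary tumours. It exceeded the array median in no primary or Ptch1het tumour, and the rise was at least 3.25-fold (adjusted p = 0.000347). Dhh, the related ligand made by Schwann cells, rose at least 8.93-fold (10.21 ± 0.26 in metastatic and 6.36 ± 0.32 in primary tumours, adjusted p = 0.000106). Shh and Dhh passed the probe filter only through the metastatic tumours, so they could only be higher there. Ptch1, receptor and target of the pathway, read 11.62, 9.99, 10.73 and 10.41 in metastatic tumours, against 11.57, 10.79, 11.08 and 10.69 in primary tumours (log2 difference -0.35, SE 0.16, adjusted p = 0.235). The target gene Hhip (-0.25, adjusted p = 0.319) and the factor Gli2 (-0.13, adjusted p = 0.627) did not pass either. Of the 18 tested genes of the pathway list 2 rose (11.1%, against 6.47% over all genes). They were Shh and the co-receptor Cdon (log2 difference 0.81, adjusted p = 0.0467, but 0.122 without pairing and 0.0706 to 0.16 without replicate 2, 3 or 4). With probes above the median on all 8 arrays, 0 genes of the pathway list rose.

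Proliferation and housekeeping lists held few or no changes. Of 36 tested genes of the cell cycle and replication none passed (median -0.02), with Mki67, a marker of dividing cells, at 13.09 ± 0.27 in metastatic and 12.86 ± 0.25 in primary tumours (adjusted p = 0.29). None of 31 genes of oxidative phosphorylation (median 0.09) and none of 15 ribosomal protein genes (median -0.14) passed. At an unadjusted p of 0.05 in the same limma fit, 1 cell cycle, 2 oxidative phosphorylation and 2 ribosomal protein genes passed. Among 34 chromatin regulators Tet1, a DNA demethylase, fell by 0.77 (adjusted p = 0.0343, but 0.0531 without pairing and 0.0833 to 0.138 without replicate 1, 2 or 3).

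The remaining lists held members called in one or both directions, against 6.47% higher and 2.89% lower over all genes. Of 37 axon guidance and migration genes 7 rose and 1 fell, of 20 Wnt genes 5 and 1, and of 19 Notch genes 2 and 1. Retinoic acid genes rose in 3 of 12, among them Cyp1b1, a retinoid-metabolizing cytochrome (2.22, adjusted p = 0.00119). Epithelial-mesenchymal transition genes rose in 12 of 26 with none lower, among them the matrix protein gene Sparc (1.65, adjusted p = 0.000618), S100a6 (2.69, adjusted p = 0.000921) and the metalloproteinase gene Mmp14 (1.29, adjusted p = 0.00277). Sfrp5, a secreted Wnt inhibitor, rose by 1.53 (adjusted p = 0.00107) and the ligand gene Wnt5a by 1.11 (adjusted p = 0.00795). Ndrg1, which hypoxia induces and Schwann cells express, was the 1 riser of 21 genes of hypoxia and glycolysis (2.40, adjusted p = 0.000765). Of 22 granule progenitor factors 2 rose and 1 fell, of 24 brain matrix genes 4 and 3, of 12 Purkinje cell and interneuron genes 2 and 2, and of 19 p53 targets 2 rose. The granule progenitor (9.09% higher, 4.55% lower), Notch (10.5% and 5.26%) and p53 (10.5% higher) shares were near those of all genes. Of the Notch genes, 2 were at or below the array median in all primary tumours and 1 in all metastatic tumours. The probe filter fixed the direction of such members. With probes above the median on all 8 arrays, 0 Notch genes rose and 0 fell. The brain matrix and epithelial-mesenchymal transition lists each held 1 member at or below the median in all primary tumours. Without replicate 3 the axon guidance rises numbered 4, and without replicate 2 the Wnt rises 3. The brain matrix rises numbered 1 without replicate 2, 3 or 4 and 2 without pairing, and the granule progenitor rises 0 without replicate 2 and 1 in each of those other fits. The nerve and connective tissue lists were higher in the same tumours.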

How the data were processed

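Illumina BeadChip signals of 45281 probes on 12 arrays were used. The deposited values are intensity on a linear scale, which the authors had normalized between arrays, as array medians of 187 show. How these values had been normalized, if at all, is not stated in the labels used here. A further deposited table has 24 per-array columns that match no sample label, so they were not used, and which array lay on which chip is unknown.

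Intensities were background corrected (normexp, offset 50), quantile normalized and log2 transformed with limma 3.58.1 in R 4.3.3. Probes above the array median on at least 4 of the 8 A1G arrays were kept (23004), and the probe with the highest mean stood for a gene. The filter and probe rule were set after the files were seen. Metastatic and primary tumours were compared with replicate number as a block (lmFit, eBayes, 3 residual degrees of freedom), adjusting over 15839 genes. The numbers were taken as pairs because the comparison was defined so, and not because of the following check. Deviations from group means correlated between same-numbered samples by 0.461, 0.166, 0.216 and 0.274 for replicates 1 to 4. Differently numbered samples correlated by -0.317 to 0.178, the highest being metastatic 2 with primary 4, above the value of pair 2. Deviations within a group sum to 0, which lowers these values, so the check is weak. Tested on simulated data with 200 changed genes, the fit called 67.4% of those set at 2-fold and 93.0% of those at 4-fold, and 5 others. The number of arrays limits precision.

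Named were the 15 largest falls, the 15 largest rises on no list of adjoining tissue and above the median in all primary tumours, the 5 largest rises, up to 4 members per list and 7 set genes. Some genes that met this rule are not reported here, and other genes were named after their values were seen. Comparison, lists and members were chosen with earlier results of these data known. Promoter sequences are from RefSeq (GRCm38.p6). Alternatives were the pairing, background, normalization, filter, probe, variance and sample choices.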

Additional observations from a re-analysis of the deposited data

Results flagged for a closer look

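In 6 of 236 groups of 4 tumours, 1 tumour lay far from the other 3 by Dixon's test, where chance flags about 1 in 20 groups. Snhg11 read 9.636 in primary tumour 1 and at most 8.33 in the other primary tumours. Scn11a read 8.417 in primary tumour 4, against at most 6.29 in the others. Mfap5, a microfibril gene, read 5.837 in primary tumour 1, against at least 6.39. Cspg4 read 8.446 in primary tumour 3, against at least 8.94. Id1, a target of BMP signalling, read 11.85 in metastatic tumour 1, against at most 11.45 in the other metastatic tumours. Crabp2, a retinoic acid binding protein, read 7.168 in primary tumour 4, against at most 6.94.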

How the results depend on the processing

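Against 1482 genes (1024 higher, 458 lower) with pairing, no replicate block gave 1042 genes (831 higher, 211 lower), of which 985 were shared. All 12 arrays, also without the replicate block, gave 880 genes (751 higher, 129 lower). Probes above the median on all 8 arrays gave 1042 genes (658 higher, 384 lower). Counts over 12 arrays below are likewise without the replicate block. Replicates 1 and 4 only gave 245 genes (232 higher, 13 lower) and replicates 2 and 3 only 1276 genes (921 higher, 355 lower), each with 1 residual degree of freedom. Leaving out 1 replicate gave 730 to 1111 genes, 607 to 828 higher and 123 to 283 lower. Among members called lower, meningeal fibroblast and connective tissue genes numbered 1, against 0 without the replicate block, over 12 arrays, for replicates 1 and 4 and for replicates 2 and 3, 0 to 1 with 1 replicate left out. Vessel genes numbered 1, against 0 for replicates 1 and 4 and for replicates 2 and 3, 0 to 1 with 1 replicate left out. Oligodendrocyte precursor genes numbered 12, against 7 with the 8-array filter, 0 for replicates 1 and 4, 7 to 11 with 1 replicate left out. Mature oligodendrocyte genes numbered 0, against 1 for replicates 2 and 3, 0 to 1 with 1 replicate left out. Astrocyte and Bergmann glia genes numbered 2, against 1 without the replicate block, over 12 arrays and at offset 16, 0 for replicates 1 and 4, 6 for replicates 2 and 3, 1 to 8 with 1 replicate left out. Mature granule neuron genes numbered 5, against 0 without the replicate block and over 12 arrays, 3 for replicates 1 and 4. Purkinje cell and interneuron genes numbered 2, against 1 without the replicate block, over 12 arrays and for replicates 2 and 3, 0 for replicates 1 and 4, 1 to 2 with 1 replicate left out. SHH pathway genes numbered 0, against 1 with probe means. Granule progenitor transcription factors numbered 1, against 0 over 12 arrays, with the 8-array filter and for replicates 1 and 4, 2 with probe means and for replicates 2 and 3, 1 to 2 with 1 replicate left out. Glutamate and GABA receptors and transporters numbered 7, against 2 without the replicate block and over 12 arrays, 0 for replicates 1 and 4, 4 for replicates 2 and 3, 2 to 4 with 1 replicate left out. Brain extracellular matrix genes numbered 3, against 0 for replicates 1 and 4. Synaptic organizers and adhesion genes numbered 6, against 2 without the replicate block, 1 over 12 arrays and for replicates 1 and 4, 3 with the 8-array filter, 1 to 5 with 1 replicate left out. Axon guidance and migration genes numbered 1, against 0 without the replicate block, over 12 arrays, at offset 16 and for replicates 1 and 4, 4 for replicates 2 and 3, 0 to 3 with 1 replicate left out. Notch pathway genes numbered 1, against 0 over 12 arrays, with the 8-array filter and for replicates 1 and 4, 2 without background correction, with probe means, with trend and robust and for replicates 2 and 3, 0 to 2 with 1 replicate left out. Cholesterol synthesis genes numbered 0, against 1 with probe means. Hypoxia and glycolysis genes numbered 0, against 0 to 1 with 1 replicate left out. Chromatin regulators numbered 1, against 0 without the replicate block and for replicates 1 and 4, 2 without background correction, without quantile normalization and with trend and robust, 4 for replicates 2 and 3, 0 to 2 with 1 replicate left out. Wnt pathway genes numbered 1, against 0 without the replicate block, over 12 arrays, without background correction, with the 8-array filter and with probe means, 3 without a filter, 0 to 1 with 1 replicate left out. Amino acid response genes numbered 5, against 1 without the replicate block, 0 over 12 arrays, 2 for replicates 1 and 4. Among members called higher, peripheral neuron genes numbered 17, against 4 with the 8-array filter, 9 for replicates 1 and 4. Schwann cell and peripheral nerve genes numbered 16, against 5 with the 8-array filter, 9 for replicates 1 and 4. Spinal cord and motor neuron genes numbered 13, against 1 with the 8-array filter, 7 for replicates 1 and 4. Skeletal muscle genes numbered 14, against 8 without the replicate block, 4 with the 8-array filter, 1 with trend and robust, 6 for replicates 1 and 4, 2 to 15 with 1 replicate left out. Cartilage and bone genes numbered 2, against 1 without the replicate block, over 12 arrays, without background correction, at offset 16, with the 8-array filter, with probe means, for replicates 1 and 4 and for replicates 2 and 3, 1 with 1 replicate left out. Immune cell genes numbered 13, against 7 without the replicate block and for replicates 2 and 3, 8 over 12 arrays, 6 with the 8-array filter and for replicates 1 and 4, 6 to 10 with 1 replicate left out. Vessel genes numbered 3, against 1 to 7 with 1 replicate left out. Mature oligodendrocyte genes numbered 4, against 1 over 12 arrays, 2 with probe means, 0 for replicates 1 and 4, 1 to 5 with 1 replicate left out. Astrocyte and Bergmann glia genes numbered 2, against 0 without the replicate block, over 12 arrays and for replicates 1 and 4, 1 without background correction, with the 8-array filter and with trend and robust, 0 to 4 with 1 replicate left out. Mature granule neuron genes numbered 0, against 1 for replicates 2 and 3. Purkinje cell and interneuron genes numbered 2, against 1 without the replicate block, over 12 arrays, at offset 16, with probe means and with trend and robust, 0 for replicates 1 and 4, 1 to 2 with 1 replicate left out. SHH pathway genes numbered 2, against 1 without the replicate block, over 12 arrays, without background correction and for replicates 1 and 4, 0 with the 8-array filter, 1 to 2 with 1 replicate left out. Granule progenitor transcription factors numbered 2, against 1 without the replicate block, over 12 arrays, with the 8-array filter, with trend and robust and for replicates 2 and 3, 0 for replicates 1 and 4, 0 to 1 with 1 replicate left out. Glutamate and GABA receptors and transporters numbered 2, against 1 with the 8-array filter, 0 for replicates 1 and 4. Brain extracellular matrix genes numbered 4, against 2 without the replicate block, over 12 arrays and for replicates 2 and 3, 0 for replicates 1 and 4, 1 to 3 with 1 replicate left out. Synaptic organizers and adhesion genes numbered 1, against 0 for replicates 1 and 4, 0 to 1 with 1 replicate left out. Axon guidance and migration genes numbered 7, against 2 for replicates 1 and 4, 4 to 6 with 1 replicate left out. Notch pathway genes numbered 2, against 1 without the replicate block, over 12 arrays and without background correction, 0 with the 8-array filter and for replicates 1 and 4, 1 to 2 with 1 replicate left out. Cholesterol synthesis genes numbered 1, against 2 without the replicate block and with trend and robust, 0 over 12 arrays and for replicates 1 and 4, 3 with probe means, 5 for replicates 2 and 3, 0 to 3 with 1 replicate left out. Oxidative phosphorylation genes numbered 0, against 1 over 12 arrays, 2 for replicates 2 and 3, 0 to 2 with 1 replicate left out. Hypoxia and glycolysis genes numbered 1, against 3 for replicates 2 and 3, 1 to 2 with 1 replicate left out. Epithelial-mesenchymal transition genes numbered 12, against 4 for replicates 1 and 4. Wnt pathway genes numbered 5, against 3 over 12 arrays, 1 for replicates 1 and 4, 3 to 4 with 1 replicate left out. P53 targets numbered 2, against 1 without the replicate block, over 12 arrays, without background correction and with the 8-array filter, 0 for replicates 1 and 4, 1 to 2 with 1 replicate left out. Amino acid response genes numbered 2, against 1 without the replicate block, with probe means and for replicates 2 and 3, 0 over 12 arrays and for replicates 1 and 4, 1 to 2 with 1 replicate left out. Of 118 named genes 108 were called, 35 of these in every alternative in which they could be fitted, and none reversed. The 8-array filter leaves out, by construction, genes that are dim in 1 tumour, so it removes genes near background in a whole group. Signal over background limits the bounds given for such genes. For other lists the counts stayed within 1.5 times. Fewer samples were fitted where a replicate was left out, and other causes were not tested.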

Other observations

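Single members of the brain matrix, axon guidance, immune cell and p53 lists counted above also rose. Spock3, a brain proteoglycan, exceeded the array median in no primary tumour and rose at least 2.92-fold (adjusted p = 0.00411). Slit2, a repulsive guidance cue, rose by 1.80 (adjusted p = 0.00306), while its other probe differed by 0.01. The T cell receptor component gene Cd3g rose at least 1.5-fold (adjusted p = 0.00221) and the chemokine gene Ccl5 by 1.69 (adjusted p = 0.000786). Spock3 and Cd3g passed the probe filter only through the metastatic tumours, so they could only be higher there. Phlda3, a p53 target, rose by 1.51 (adjusted p = 0.00178).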
